A study of Homo sapiens with 24 samples.

Results

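RAB GTPases are small membrane-bound switches that direct vesicle traffic. Each cycles between a GDP-bound form held in the cytosol and a GTP-bound form on membranes, where it recruits effectors, and exchange factors and GTPase-activating proteins turn it on and off. A prenyl lipid added to cysteines at the C-terminus anchors the protein. RAB8A, RAB8B, RAB10 and RAB13 act in delivery to the plasma membrane, RAB35 and the RAB11 pair in recycling from endosomes, and the RAB5 isoforms on early endosomes. In erythroid cells such as K562 these routes carry the transferrin receptor.

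RAB8A, RAB8B, RAB35, RAB10, RAB13, RAB11A, RAB11B, RAB5A, RAB5B and RAB5C were followed, 10 of 12285 genes in the expression table. RAB8B and RAB35 were selected on measured values, as genes thought to rise and to fall at 16 h and 18 h, and the others were added as close relatives. Every value at 16 h and 18 h is therefore given as a description, with no test. The samples were 24 collections of K562, an established human chronic myelogenous leukaemia line with erythroid features. The cells were grown in RPMI with 10% bovine calf serum and antibiotics, an elutriator was used to obtain synchronous cells, and no drug or genetic change was applied. Sampling began at 0 h and ended at 46 h in steps of 2 h. Each time point was sampled only once and there were no replicates, so the spread of a gene over the other 22 time points stands in for a replicate error and includes any real change with time.

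The coding ends of 6 members are shown because they carry the anchor and tell close relatives apart. The last 60 coding bases, stop codon included, were read 5′ to 3′ on the coding strand from GENCODE 29 transcripts (GRCh38), and capitals mark cysteine codons among the last 5 codons before the stop.
RAB8A (chromosome 19): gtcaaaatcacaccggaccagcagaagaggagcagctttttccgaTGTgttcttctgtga
RAB8B (chromosome 15): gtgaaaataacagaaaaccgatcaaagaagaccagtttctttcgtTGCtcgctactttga
RAB10 (chromosome 2): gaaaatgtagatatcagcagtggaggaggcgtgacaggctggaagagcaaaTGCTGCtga
RAB35 (chromosome 12): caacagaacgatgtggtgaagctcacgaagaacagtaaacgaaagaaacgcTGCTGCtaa
RAB11A (chromosome 15): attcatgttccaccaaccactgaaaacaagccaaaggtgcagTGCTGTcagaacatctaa
RAB5A (chromosome 3): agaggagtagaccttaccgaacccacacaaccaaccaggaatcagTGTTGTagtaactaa
RAB8A and RAB8B each had 1 such codon, as did RAB13, and the other 7 members had 2. Over the whole coding sequence RAB8A and RAB8B shared 76.5% of aligned bases, RAB5B and RAB5C 76.7%, and RAB11A and RAB11B 72.5%, while RAB8A and RAB35 shared 58.8%. RAB8A and RAB8B had no stretch of 31 bases in common, so reads of that length could separate them. Stretches of 31 bases shared with other annotated genes, on either strand, covered 57.0% of the RAB13 transcript, 41.7% of RAB8A, 39.1% of RAB5C and 13.2% of RAB11B. They covered 0% of RAB8B, RAB35 and RAB10, so levels of RAB13, RAB8A, RAB5C and RAB11B are less certain. For RAB13, RAB8A and RAB5C most of the sharing was with AL358472.6, AC008894.2 (antisense) and AC099811.2, none of which is in the expression table. The effect of this sharing on the deposited levels was not tested.

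K562 identity was checked with 10 erythroid genes, all of which were in the table, among them HBG2 at a median of 2457 FPKM. Of 6 fibroblast genes only COL1A2 was listed, at 1.70 to 3.94 FPKM over the 22 other time points, and the lymphoid genes PTPRC and CD3D were listed too. The libraries at 16 h and 18 h stood apart. Their summed FPKM was 566247 and 591309 against 456791 to 520382 at the others, 102 and 115 genes were listed at 0 against 4 to 58, and the median gene lay 0.14 above its flanks on the log2(FPKM + 1) scale. The study identified 16 h and 18 h of this series as anomalous. By eye, though not by its detection function, it also marked 32 h as a milder case. It proposes a technical rather than biological origin for such time points. That origin was not tested here. In bulk RNA, fewer cells of a kind and less RNA per cell cannot be told apart. The erythroid genes moved too, with 6 of 10 at least 2-fold below their flanks and 1 above, where 7.11% and 8.95% of genes were. HBG2 was at 684 and 533 FPKM at 16 h and 18 h.

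Away from 16 h and 18 h, the RAB genes differed widely in level. By geometric mean over 22 time points, in FPKM and hence per transcript length, RAB11A was highest at 144, followed by RAB10 at 101, RAB5C at 75.7, RAB8A at 44.7, RAB5A at 36.6, RAB35 at 34.1, RAB11B at 28.3, RAB13 at 23.1, RAB5B at 22.97 and RAB8B at 13.1. Most neighbours in this order kept it at 21 or 22 of 22 time points. RAB8A exceeded RAB5A at 17, RAB5A exceeded RAB35 at 17, and RAB13 exceeded RAB5B at 13, so those neighbours did not separate beyond their spread. Of these neighbours only RAB5C and RAB8A had ranges that did not overlap. RAB10 varied most between time points, its highest value being 2.45 times its lowest, and RAB11A least, at 1.29 times.

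**Figure D1:**
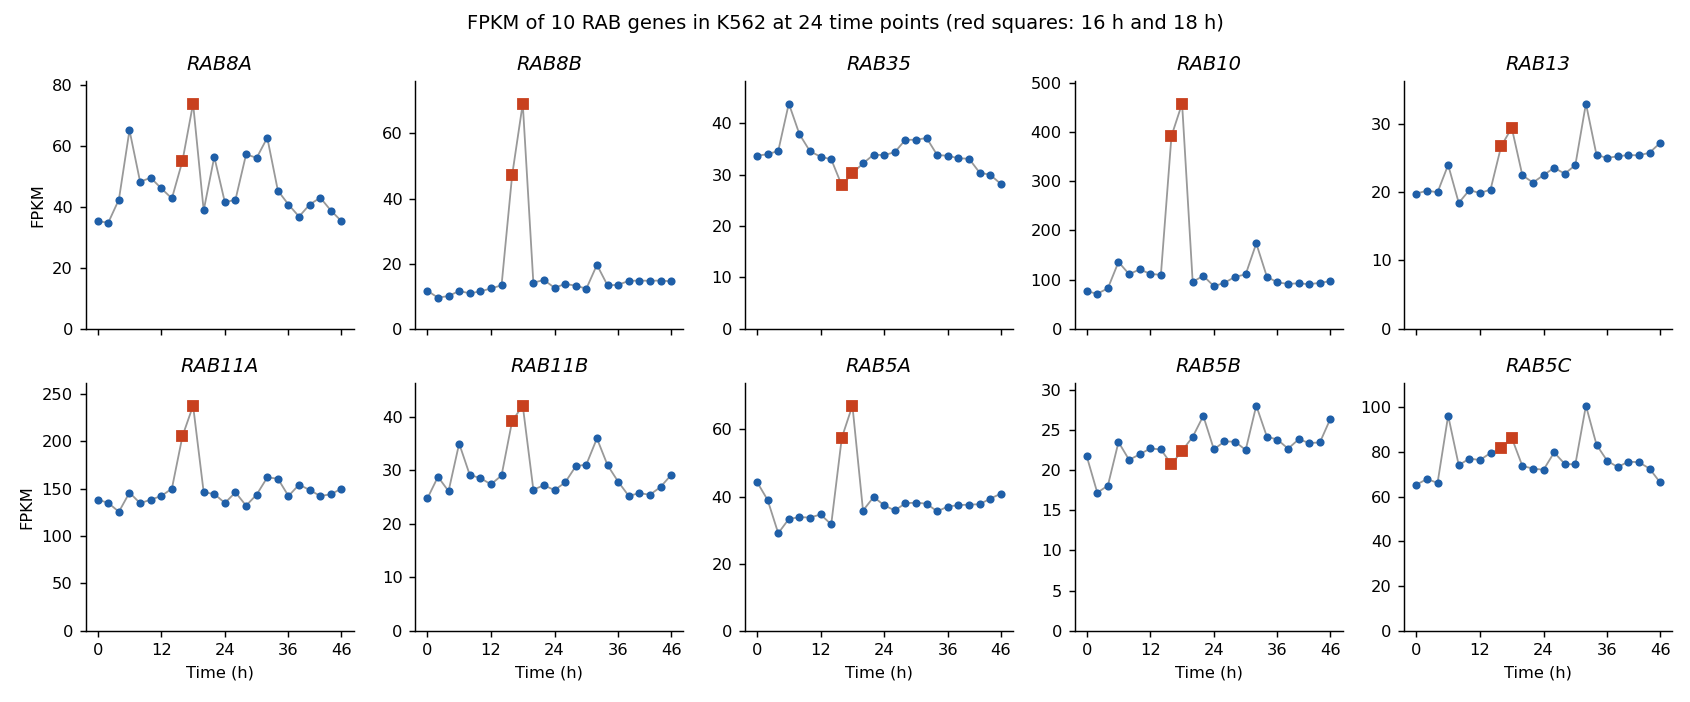
FPKM (y axis, from 0, each panel on its own scale) of the 10 RAB genes against hours (x axis), with 1 sample per point. Red squares mark 16 h and 18 h, where RAB8B and RAB10 stand far above their other points and RAB35 differs little from its flanks.

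In the RAB8 branch, RAB8B and RAB10 were high at 16 h and 18 h. RAB8B had 9.54 (2 h), 13.3 and 19.6 FPKM (32 h) as its lowest, median and highest values over the other 22 time points. Across 14, 16, 18 and 20 h it had 13.3, 47.2, 69.2 and 14.2 FPKM, so the mean of 16 h and 18 h was 4.23 times that of the flanks. RAB10, which brings cargo such as glucose transporters to the plasma membrane, stood nearly as far above its flanks, from a far higher level. Its values at 14, 16, 18 and 20 h were 109, 392, 458 and 95.2 FPKM, a ratio of 4.15, against 70.95 (2 h), 95.9 and 174 FPKM (32 h) as lowest, median and highest elsewhere. For both genes neither time point overlapped the other 22.

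RAB8A and RAB13 were less affected. RAB8A, the main RAB8 isoform by level here, went from 42.8 FPKM at 14 h to 55.1 and 73.9 and back to 38.8 at 20 h. At 16 h it was exceeded at 5 of the other 22 time points, whose lowest, median and highest values were 34.8, 42.6 and 65.2 FPKM, and at 18 h at none. RAB13, linked to tight junctions and surface delivery, was at 20.4, 26.7, 29.4 and 22.5 FPKM at 14, 16, 18 and 20 h, with 18.4, 23.2 and 33.0 FPKM as lowest, median and highest elsewhere. Both of its high values were within that range.

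RAB35 differed little from its flanks. This GTPase of the endocytic recycling pathway had 33.0, 27.9, 30.3 and 32.2 FPKM at 14, 16, 18 and 20 h, and elsewhere had 28.2 (46 h), 33.8 and 43.8 FPKM (6 h) as lowest, median and highest. The value at 16 h was the lowest of all 24, whereas at 18 h it was above those of 2 other time points. The mean of 16 h and 18 h was 10.7% below that of the flanks. An antisense gene on the other strand, RAB35-AS1, overlaps 14.8% of RAB35's exonic bases over all its GENCODE 29 transcripts. As strand was not stated for these libraries, reads there cannot be assigned to either. The RAB35 transcript compared above shared no stretch of 31 bases with other genes, so the overlap lay largely in other RAB35 transcripts. RAB35-AS1 was at 3.24, 4.44, 4.55 and 3.45 FPKM at 14, 16, 18 and 20 h.

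The recycling pair RAB11A and RAB11B was higher at 16 h and 18 h, by ratios of 1.496 and 1.47 to the flanks. RAB11A was at 150, 206, 238 and 146 FPKM at 14, 16, 18 and 20 h, against 126, 144 and 162 FPKM as lowest, median and highest elsewhere. RAB11B was at 29.04, 39.2, 42.1 and 26.4 FPKM, against 24.7, 27.8 and 36.0 FPKM. Neither overlapped its other values. RAB11B shares 12.4% of its exonic bases with RAB11B-AS1 on the other strand, which was at 1.33 and 1.51 FPKM at 16 h and 18 h.

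The RAB5 isoforms, which share a role in early endosome fusion, split. RAB5A was at 31.7, 57.5, 67.1 and 35.8 FPKM at 14, 16, 18 and 20 h and did not overlap its other values of 29.1, 37.4 and 44.3 FPKM as lowest, median and highest. RAB5B was at 22.6, 20.7, 22.4 and 24.1 FPKM, within its range of 17.2 to 28.0 elsewhere. RAB5C was at 79.6, 81.7, 86.3 and 73.8 FPKM, within its range of 65.3 to 101.

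The size of these moves was set against ordinary changes between neighbouring hours. For each gene a line was drawn from 14 h to 20 h on log2(FPKM + 1), the mean distance of 16 h and 18 h from it was called the deviation, and the same measure was taken at 16 other pairs of consecutive time points. RAB10 deviated by 2.04, against -0.41 to 0.41 at the other pairs, and RAB8B by 1.98, against -0.34 to 0.31. RAB5A deviated by 0.86, RAB8A by 0.63, RAB11A by 0.57, RAB11B by 0.54 and RAB13 by 0.37, each above its own range at other pairs. RAB5C at 0.13, RAB5B at -0.11 and RAB35 at -0.16 stayed inside theirs, though RAB35 lay at the edge of a range of -0.16 to 0.23. The direction of RAB35 and RAB5C rested on the scaling: RAB35 became 0.27 once a smooth trend with GC content was taken out across all genes, and RAB5C became -0.16 under quantile normalization and -0.10 under upper-quartile scaling.

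**Figure D2:**
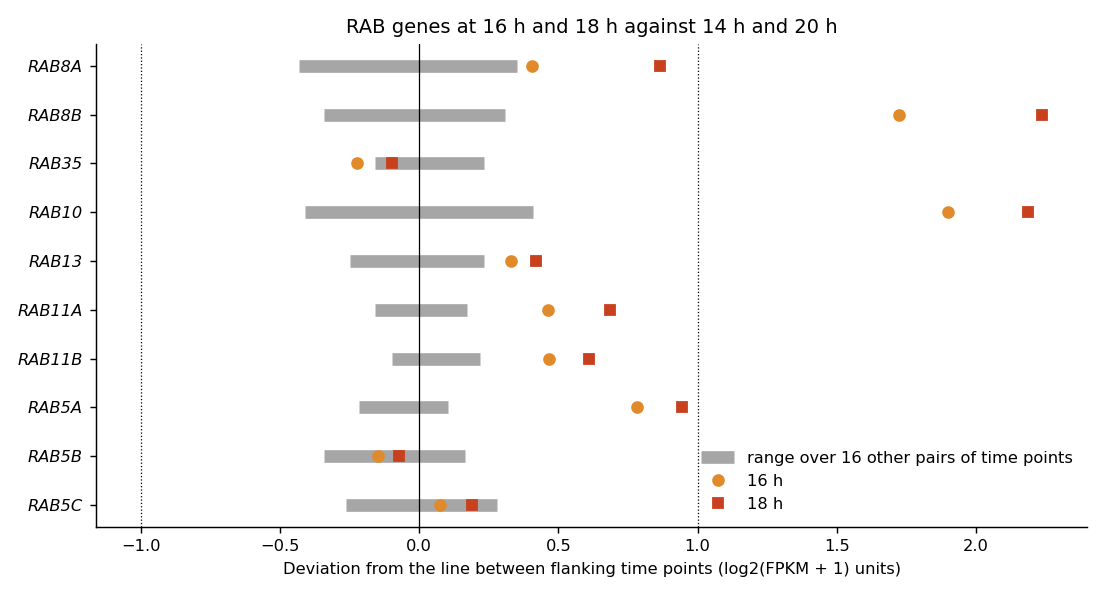
Deviation at 16 h (circles) and 18 h (squares) from the line between 14 h and 20 h, in log2(FPKM + 1) units (x axis), for each RAB gene (y axis). Grey bars span the mean deviation at 16 other pairs of time points, dotted lines mark 2-fold, and RAB8B and RAB10 lie beyond 2-fold.

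By a 2-fold threshold, 2 of 10 members lay above their flanks, where 8.95% of 12253 genes did (mean FPKM of 1 or more), and 0 of 10 lay below, where 7.11% did. At 1.5-fold, 4 of 10 lay above, against 23.9% of genes. Both time points exceeded all 22 others for 5 of 10 members, RAB8B, RAB10, RAB11A, RAB11B and RAB5A, and for 30.9% of genes. RAB8A and RAB11A at 0.63 and 0.57 lay just inside and just outside 1.5-fold, and no member lay near 2-fold other than RAB5A at 0.86. A deviation above the median of all genes was found for 7 of 10 members, here and under median centring, upper-quartile scaling and quantile normalization. Since the selection used these time points, nothing is read from the counts.

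The shares of paralogues differed at these time points. RAB8B made up 15.1% to 29.2% of the summed FPKM of RAB8A and RAB8B at the other 22 time points, with a median of 23.5%, and 46.1% and 48.4% at 16 h and 18 h. The mean share was 22.0 percentage points above that at 14 h and 20 h, with an SD of 3.80 points over the 22 other time points. RAB11B held 16.0% and 15.0% of the RAB11 sum, within its range of 14.0% to 19.3%. RAB5A held 36.0% and 38.1% of the RAB5 sum, above its range of 21.8% to 33.7%, and RAB5B 12.96% and 12.8%, below its range of 13.9% to 19.8%. The 10 genes together summed to 954 and 1116 FPKM, against 454 to 691 FPKM at the others. RAB10 alone held 392 and 458 FPKM of these sums, while RAB35 and RAB5B lay below their flanks. The summed FPKM of all genes was also higher at both time points.

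**Figure D3:**
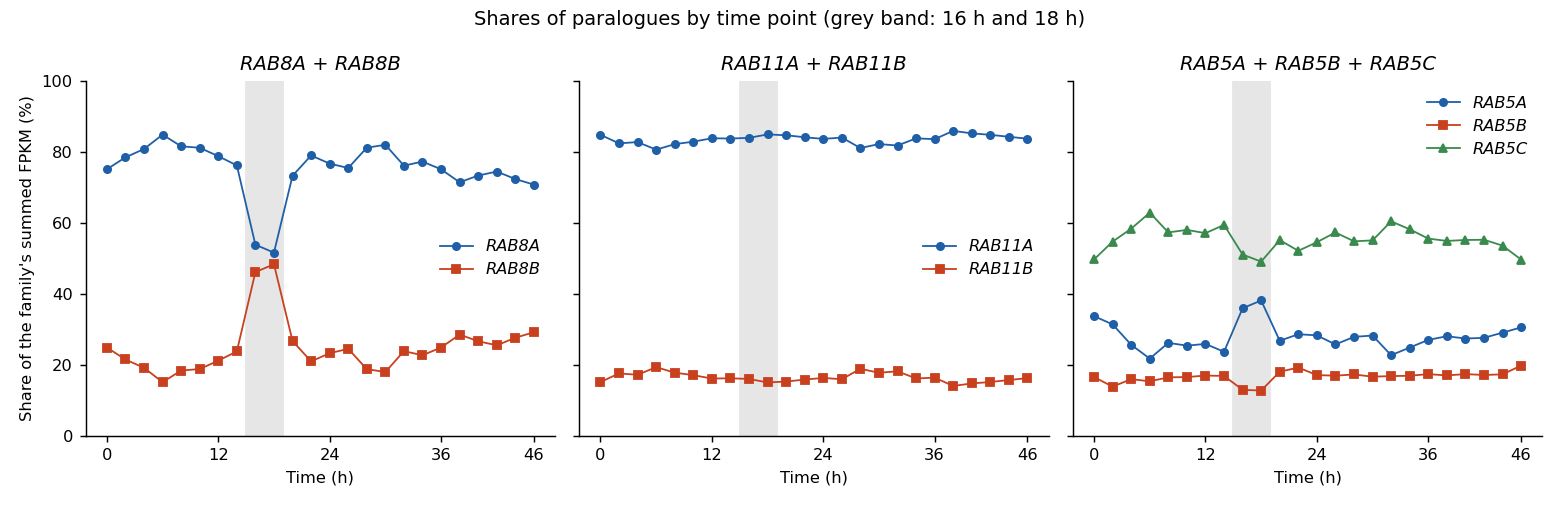
Share of the summed FPKM of each RAB family (y axis, %) held by each paralogue against hours (x axis), 1 sample per point, with 16 h and 18 h in the grey band. RAB8B reaches 46.1% and 48.4% in the band, while the RAB11 shares stay in their range.

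Base composition moved with the deviation across the transcriptome, and with it across the RAB genes outside the 10 members. Over 12148 genes Pearson's r of transcript GC content and deviation was -0.52, over the 10 members -0.61 and over 28 other RAB genes -0.64. These are correlations across genes of the same libraries, not across replicates. RAB8B and RAB35 were selected on these time points, so nothing is read from the r of the members. The median deviation was 0.56 among the 1215 genes of lowest GC content and -0.69 among the 1215 of highest. RAB8B has 36.2% GC, RAB11A 37.2%, RAB10 41.0%, RAB5A 42.0%, RAB5B 46.3%, RAB13 51.3%, RAB8A 54.1%, RAB5C 55.8%, RAB35 57.6% and RAB11B 63.5%. With the smooth GC trend removed and the median of all genes kept, RAB10 was at 1.70, RAB8B at 1.54, RAB8A at 0.89, RAB5A at 0.56, RAB13 at 0.48 and RAB5C at 0.48. RAB11B moved from 0.54 to 1.30 and so past 2-fold, RAB11A from 0.57 to 0.14, RAB35 from -0.16 to 0.27 and RAB5B from -0.11 to -0.25. The part of GC content in the values at 16 h and 18 h was not tested beyond this.

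**Figure D4:**
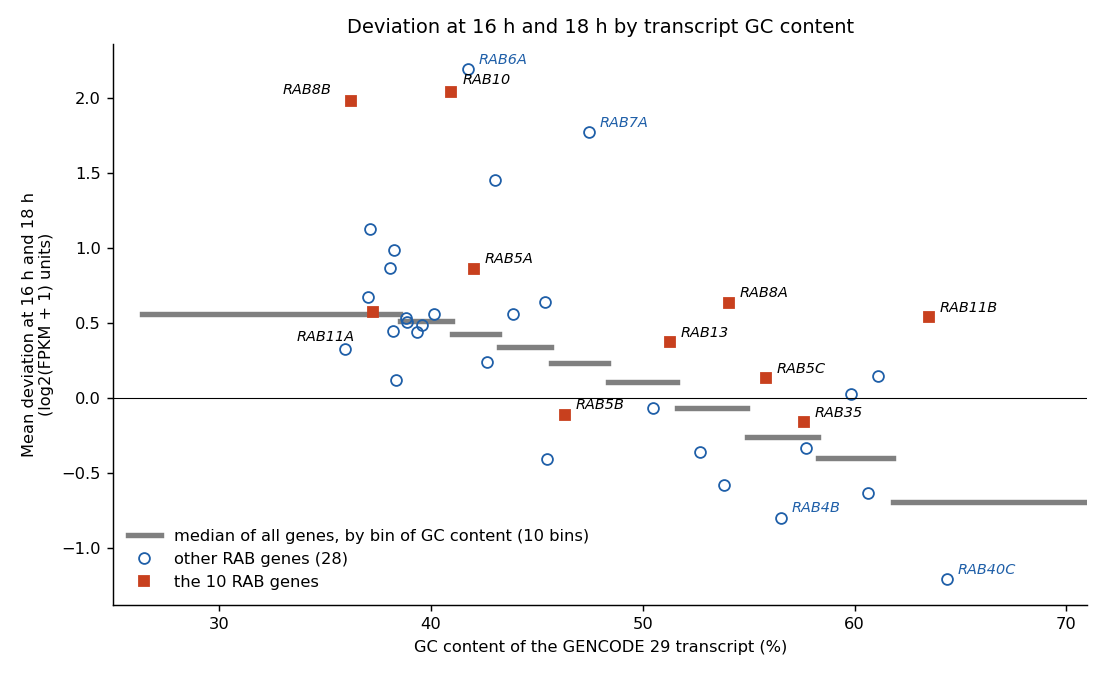
Mean deviation at 16 h and 18 h in log2(FPKM + 1) units (y axis) against GC content of a GENCODE 29 transcript in % (x axis, ending at 71, with the last bin reaching 86.4) for the 10 RAB genes (squares) and 28 other RAB genes (circles). Grey lines give the median of all genes in each of 10 bins of GC content, falling from 0.56 to -0.69, and RAB8B, RAB10, RAB6A and RAB7A lie far above them.

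The authors also deposited a cleaned table, in which Z-scores of each gene over time had been put on a common distribution at all time points. The study uses this step to lessen the anomalies at 16 h and 18 h, and states that it does not remove them fully. The peak of RAB8B was present in the cleaned table. Its scores of 0.75 at 16 h and 2.41 at 18 h were the second and the first of 24. No other time point exceeded 0.04. In the uncleaned Z-scores the same points were 2.33 and 4.02. RAB10 ranked first at 16 h and second at 18 h, where it scored 1.43, against at most 0.35 elsewhere. RAB35 scored -0.88 and -0.51, ranks 21 and 19 of 24, and its lowest score was -1.49 at another time point. RAB8A had 0.79 and 2.63 uncleaned but 0.02 and 0.57 cleaned, ranks 10 and 6. RAB11A kept ranks 2 and 1, at 0.78 and 1.71 against at most 0.72 elsewhere. RAB5A had ranks 3 and 1, at 0.81 and 1.49 against at most 0.84 elsewhere, and RAB11B ranks 4 and 3. RAB13, RAB5B and RAB5C ranked 9 or lower at both.

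Genes around the RAB cycle were taken by role, from lists named for function and counted whole. Beside the counts below, 8.95% of 12253 genes were at least 2-fold above their flanks, 7.11% were 2-fold below and 23.9% were 1.5-fold above. Of 28 other RAB genes tested, 4 were at least 2-fold above their flanks and 1 below, and the median deviation was 0.44 against 0.14 over all genes. RAB6A of Golgi transport deviated by 2.19, from 27.4 FPKM at 14 h to 116 and 154, and RAB7A of late endosomes by 1.77, from 88.5 to 260 and 351. The other genes above 2-fold, named after their values were seen, were RAB2B at 1.45 and RAB21 at 1.13. RAB40C deviated by -1.21 and RAB4B by -0.80. Among the exchange factors, which load GTP, 2 of 13 were 2-fold above, none was 2-fold below, and 11 were 1.5-fold above, with a median of 0.72. SH3BP5, an exchange factor for RAB11, deviated by 1.07, TRAPPC9 by 1.02, DENND1A, which acts on RAB35, by 0.11, and RAB3IL1, which acts on RAB8, by -0.57.

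GTPase-activating proteins, which switch RABs off, had a median of 0.31, and 0 of 10 passed 2-fold either way. Over all genes 8.95% passed 2-fold above and 7.11% below, for this and the next lists. EVI5 deviated by 0.98, RABGAP1 by 0.85, TBC1D17 by -0.58 and TBC1D10A, a RAB35 regulator, by -0.98. Of 21 effectors 5 lay 2-fold above and 1 below, with a median of 0.39. RABEP1 and EEA1, both partners of RAB5, deviated by 1.66 and 1.38, APPL1, EHBP1 and EXOC6, also named after their values were seen, by 1.19, 1.15 and 1.04, while MICALL2, a RAB13 partner, and the actin bundler FSCN1 deviated by -1.28 and -0.88. Of 8 genes for prenylation, escort and recycling none was 2-fold above and 1 below, with a median of 0.31. GDI2, which extracts RABs from membranes, deviated by 0.78, CHML by 0.58 and RABAC1 by -1.23. The cell-cycle genes MCM5, CCNB1 and CCNE2 deviated by -0.42, -0.20 and 0.30.

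Whether the members followed the hours of the 24 h cycle was tested without 16 h and 18 h. The JTK statistic, the best match in rank order to a 24 h cosine, was compared with 100000 random orderings of the 22 time points, and p was adjusted over all 12285 genes by Benjamini-Hochberg. Of 10 members 3 passed an adjusted p of 0.05, against 16.2% of genes. RAB35 had an adjusted p of 0.0029 by this permutation test, and its raw p of 1e-05, the smallest these orderings can give, was shared by 42 genes. Its best cosine peaked at 6 h. RAB35 was highest on each day at 6 h (43.8 FPKM) and 32 h (37.1 FPKM), and lowest at 20 h (32.2 FPKM) and 46 h (28.2 FPKM). It was already known to rank high by this statistic over all 24 time points, so its call is not independent of that choice.

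RAB11B and RAB5C passed with permutation adjusted p of 0.034 and 0.043, with cosines that peaked at 6 h and 10 h. RAB11B was highest at 6 h (35.0 FPKM) and 32 h (36.0 FPKM), and RAB5C at 6 h (96.3 FPKM) and 32 h (101 FPKM). RAB8B and RAB8A missed the threshold at 0.055 and 0.071, RAB10 and RAB5A at 0.094, RAB11A at 0.23, and RAB13 and RAB5B at 0.61. Leaving out each time point in turn, RAB35 passed in 22 of 22, RAB11B in 16 and RAB5C in 6. Over every alternative tried, the permutation adjusted p was 0.0015 to 0.18 for RAB35, the highest at a period of 20 h, 0.015 to 0.33 for RAB11B and 0.025 to 0.45 for RAB5C. Without 6 h RAB35 alone passed, with RAB11B at 0.078, and with both 6 h and 32 h left out RAB35 and RAB8B passed. The test takes time points as exchangeable, so a slow drift also lowers p, and samples of 1 culture are not replicates.

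At 6 h and 32 h several members had a lone high value, and 32 h is the time point that the study marked by eye as mildly anomalous. A time point was compared with the mean of its neighbours on log2(FPKM + 1), beside 12 reference time points at a distance from 6, 16, 18 and 32 h, a reference chosen after the values were seen. At 6 h 8 of 10 members were above the range of their references, against 26.3% of genes, and at 32 h 7 of 10, against 26.3%. Leaving 16 h and 18 h aside, RAB10 was highest at 32 h, with 110, 174 and 106 FPKM at 30, 32 and 34 h, and had 82.3, 136 and 111 FPKM at 4, 6 and 8 h. RAB8A was higher at 6 h, with 42.4, 65.2 and 48.2 FPKM at 4, 6 and 8 h, and RAB8B at 32 h, with 12.3, 19.6 and 13.3 FPKM at 30, 32 and 34 h. RAB5A, which was among the high genes at 16 h and 18 h, stayed inside its reference range at both, with 33.3 FPKM at 6 h and 37.9 at 32 h. GC content and these deviations had r of 0.06 at 6 h and -0.04 at 32 h over 12148 genes.

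The second day was compared with the first at 10 matched hours of the 24 h cycle, leaving out 16, 18, 40 and 42 h, by limma on log2(FPKM + 1) with the hour as a block and two-sided p adjusted over 12253 genes. Time points of 1 culture are not replicates, so SE and p measure the spread between matched hours only. A slow drift cannot be told from a change between days. Of 10 members 1 was higher on the second day, against 12.6% of genes, and 0 were lower, against 6.8%. At an unadjusted limma p of 0.05, 2 were higher and 0 lower, where 4168 of 12253 genes passed in either direction. RAB13 had 20.7 ± 1.57 FPKM (SD over 10 hours) on the first day and 25.5 ± 3.02 on the second. Its log2 difference was 0.28 ± 0.07 (SE), higher at 9 of 10 hours, with a limma adjusted p of 0.012. The adjusted p was between 0.0096 and 0.032 on leaving out each pair of hours, and 0.072 when 16, 18, 40 and 42 h were included, the highest of any alternative.

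RAB8B was also higher at 9 of 10 hours, with 12.0 ± 1.73 FPKM on the first day and 14.2 ± 2.08 on the second, but its log2 difference of 0.23 ± 0.08 (SE) missed the threshold at an adjusted p of 0.052. The other 8 members had differences of -0.05 to 0.13 and adjusted p of 0.15 or more. By the same limma test 4 of 28 other RAB genes were higher and 1 lower, with RAB27B at 0.41 the largest rise among those past the threshold and RAB14 at -0.12 the 1 fall. The others higher, named after their values were seen, were RAB6B, RAB29 and RAB20. Of 10 GTPase-activating proteins 2 were higher and 1 lower, led by TBC1D1 at 0.52 and USP6NL at -0.14. Of 21 effectors 3 were higher and 1 lower, led by OPTN at 0.51 and EXOC6 at -0.16, and of 8 genes for prenylation and escort 1 was higher, CHML at 0.37, and 1 lower, RABGGTA at -0.37. Of 13 exchange factors 0 passed after adjustment. At an unadjusted limma p of 0.05, which 4168 of 12253 genes passed, 2 did, DENND1A and SH3BP5, both higher on the second day. The lymphoid genes PTPRC and CD3D were also higher on the second day, by 0.79 and 0.59, as was COL1A2, by 0.42. Of 10 erythroid genes 1 was lower, HBZ at -0.50, with 5 lower and 0 higher at an unadjusted limma p of 0.05 and a median difference of -0.13. The part of other cells in these differences was not tested.

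**Figure D5:**
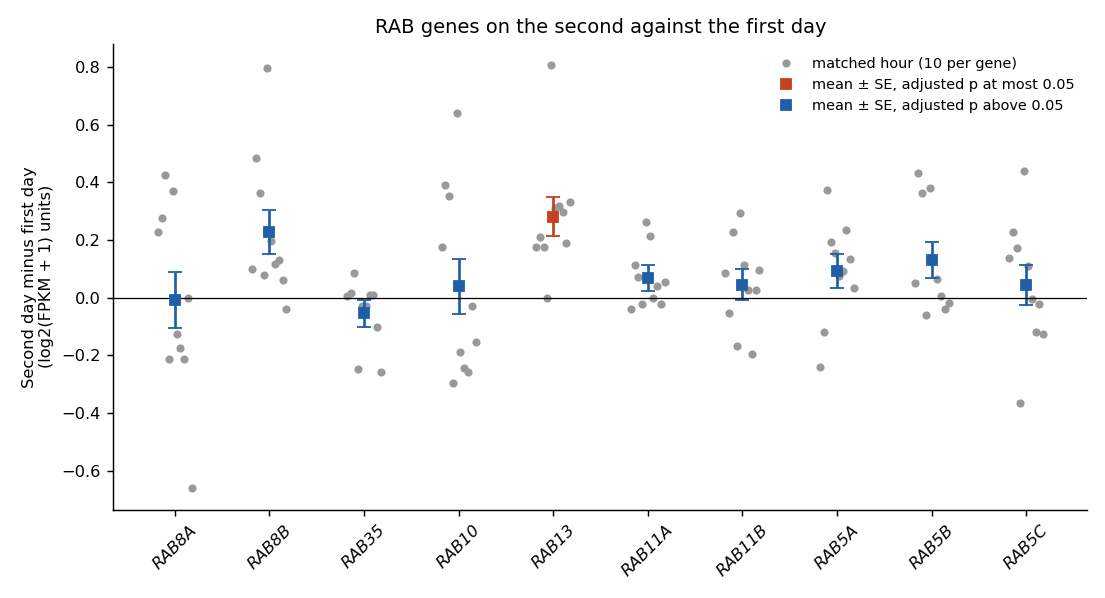
Second day minus first day in log2(FPKM + 1) units (y axis) for each RAB gene (x axis), with 10 matched hours as grey points and the limma mean ± SE as a square. RAB13, in red, is the 1 gene past an adjusted p of 0.05, at 0.28 ± 0.07.

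The genes closest in pattern to RAB8B and RAB35 were sought over the 22 other time points among the 7168 with mean FPKM of 10 or more, by Pearson's r of log2(FPKM + 1), given as a description. For RAB8B they were NUSAP1 (r = 0.92), CDC42BPA (0.91), KIF20B (0.91), UBA6 (0.90) and FKBP5 (0.90), all of which were above their flanks at 16 h and 18 h, by 0.54 to 1.51. For RAB35 they were ERVK3-1 (0.90), SRRT (0.88), UBN1 (0.88), LMNB2 (0.88) and PCNX3 (0.88). Of these 4 lay above their flanks at 16 h and 18 h, by 0.08 to 0.44, and PCNX3 lay below, at -0.45. Over all genes tested, 7114 of 12253 lay above their flanks. Among the members, RAB8B was closest to RAB5B (r = 0.87) and RAB13 (0.80) over the 22 time points, and RAB8A to RAB10 (0.82), while RAB8A and RAB8B had 0.18. With 16 h and 18 h included the last value was 0.53. The points share the libraries of 1 culture.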

How the data were processed

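Total RNA of K562 collected by elutriation was sequenced at 24 time points, each assigned from its label. The authors deposited FPKM, which their processing notes attribute to STAR, Cufflinks (Cufflinks2 in the study's methods) and Cuffnorm on GRCh37; other versions and strand are not given in the sources used here. The authors also deposited a cleaned score per gene, whose values equal those from converting each gene to Z-scores first and quantile-normalizing the time points afterwards. Authors' filtering left genes with at least 1 FPKM at 12 or more time points. Read depth is unknown: low FPKM values lay within 0.1 of whole reads in a median 46.3% of cases, against 43.5% after random scaling, so no count test was used.

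Members and lists were chosen with earlier results of these data known. Symbols were matched to all 10 members. FPKM was taken to log2 with a pseudocount of 1, which understates changes of low genes, and deviations and days used genes averaging 1 FPKM or more. Named genes were the 10 members, the 5 genes most correlated with RAB8B and with RAB35, the 2 largest deviations each way per list at 16 h and 18 h, per list the largest day change each way among genes past the threshold, and MCM5, CCNB1 and CCNE2. Values of 2 listed genes are not reported here. The JTK statistic used 12 phases. limma 3.58.1 (R 4.3.3) fitted days. Simulated data were used to test each script: of genes changed by 0.5 log2 between days 86.8% were called, and of genes given a cosine with an amplitude of 1 and 2 SD, 10.4% and 90.4%. GC content, length and coding sequence came from GENCODE 29 (1 transcript per gene, by APPRIS principal tag, then coding, then length). This is GRCh38, so no coordinates are given. Alternatives covered scaling, pseudocount, filters, flanks, GC trend, period and left-out time points.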

Additional observations from a re-analysis of the deposited data

How the results depend on the processing

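With no replicates, no value at 16 h or 18 h has an error of its own, and depth limits what low genes can show by an unknown amount. No paired analysis was possible because each time point had 1 sample; days were paired by hour of the cycle only. The 2-fold count above the flanks stayed at 2 members (RAB8B and RAB10) under each scaling, pseudocount and flank setting tried. It was 3 with the GC trend removed and 4 at 1.5-fold. The filters on low values could not change it, since every member averaged more than 10 FPKM. The count below stayed at 0 throughout. The deviation of RAB8B ranged from 1.54 to 2.05 and that of RAB10 from 1.70 to 2.05 over 8 alternatives, of which the filters left each value unchanged. Of all genes past 2-fold, 55.7% lay above, 30.8% under upper-quartile scaling, 41.1% under quantile normalization, 41.3% under median centring and 72.4% with the GC trend removed, where the median of all genes was 0.14, -0.06, 0.06, 0.02 and 0.13.

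Members with order in time numbered 3. The count was 1 at a period of 20 h (RAB10) and 1 at 28 h (RAB35), 6 under median centring and 6 under quantile normalization, and between 1 and 3 on leaving out each time point. It was 2 with all 24 time points and 4 in the cleaned table. Over all genes 1993 were called at 24 h, 83 at 20 h and 298 at 28 h, 1062 without 6 h and 32 h, and 969 without 6 h. Members that differed between days numbered 1, 0 with 16, 18, 40 and 42 h included, 2 (RAB8B and RAB13) at a mean of at least 10 FPKM, 2 with no hour-of-day block, an alternative chosen after seeing the data, and 1 to 2 on leaving out each pair. Over all genes 833 were lower on the second day, 1283 under median centring, and 452 without the 10 h pair, where 1063 rather than 1547 were higher. Of the 10 genes most like RAB8B and RAB35, 2 were also among the first 5 by Spearman's rho, and 2 by r over all 24 time points. The share of RAB8B moved by less than its SD under both alternatives, and the cause of these shifts was not tested.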
